A study of Homo sapiens with 6 samples.

Results

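The regions described here were UM-UC-3 peaks found in both replicates of a ChIP-seq experiment that precipitated PAI-1 (plasminogen activator inhibitor-1). They were chosen by overlap: a peak of UM-UC-3 replicate 1 was kept when it shared at least 1 bp with a peak of replicate 2, after intervals listed more than once had been counted once with their highest score. This selected 81814 of the 109287 replicate 1 peaks (74.9%), out of 380031 peaks in the 4 peak lists of the series. Seen from the other list, 81851 of 114094 replicate 2 peaks (71.7%) overlapped a replicate 1 peak. The peaks left over, 27473 of replicate 1 only and 32243 of replicate 2 only, served as the comparison and are called single-replicate peaks below.

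The series holds 6 samples of UM-UC-3 and RT112, both established lines from human bladder cancers: for each line, 2 biological replicates of PAI-1 ChIP from nuclear extracts and 1 input. No treatment, knockdown or transgene is named for any of these samples. The labels set the groups apart only by the cell line and by whether the antibody was used. Other differences, such as culture medium, are not given in them. The input libraries were not analysed here. The RT112 lists were read only for comparison. There 36845 replicate 1 peaks overlapped a replicate 2 peak and 59578 did not. From the other side, 36920 RT112 replicate 2 peaks overlapped a replicate 1 peak and 23307 did not. Depth could not be given, because the lists hold no read counts, and each cell line is a single line, so its copy number changes are shared by both of its replicates.

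PAI-1 is a secreted serine protease inhibitor that blocks tissue-type and urokinase-type plasminogen activators and so slows fibrinolysis. It is not a classical DNA-binding protein, and the study asked where on chromatin it could be found in the nucleus. In ChIP-seq, cross-linked chromatin is fragmented and precipitated with an antibody, and a peak is a place where the sequenced fragments pile up above a background estimated by the peak caller; extra copies of a region raise the number of fragments from it. The score of a peak was taken to be the caller's p-value or q-value written as −log10, so a higher score is read as a stronger call.

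Among the 6 regions that ranked best by score over both replicates together, 5 are shown first, since they are among the most strongly called of the regions selected. Each line gives the central 120 bases on the plus strand of GRCh37 (hg19), 5′ to 3′, and capitals mark a CCAAT box where one was found.
chr10:30106297-30106416: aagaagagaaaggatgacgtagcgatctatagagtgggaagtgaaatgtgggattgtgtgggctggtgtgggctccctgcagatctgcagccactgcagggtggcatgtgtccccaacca
chr12:114670293-114670412: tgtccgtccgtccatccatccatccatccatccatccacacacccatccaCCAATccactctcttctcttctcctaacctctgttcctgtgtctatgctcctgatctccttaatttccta
chr12:114112396-114112515: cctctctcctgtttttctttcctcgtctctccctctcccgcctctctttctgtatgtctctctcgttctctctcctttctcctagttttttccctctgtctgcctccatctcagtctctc
chr16:71048063-71048182: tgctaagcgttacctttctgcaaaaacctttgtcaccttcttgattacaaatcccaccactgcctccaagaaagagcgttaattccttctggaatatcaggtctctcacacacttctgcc
chr4:101041358-101041477: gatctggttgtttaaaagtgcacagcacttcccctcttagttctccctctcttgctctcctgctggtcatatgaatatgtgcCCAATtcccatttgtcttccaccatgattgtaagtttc

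They had no common location. The first lay in distal intergenic DNA 80.2 kb from the nearest protein-coding gene, SVIL, which encodes the actin-binding protein supervillin, and scored 73.6 in replicate 1 and 83.6 in replicate 2. The second, 121.1 kb from the heart and limb transcription factor gene TBX5, scored 75.3 and 79.7. The third, in an intron of the long non-coding RNA LINC01234, had the highest score of replicate 1, 91.3, and 74.4 in replicate 2. The fourth lay in an intron of HYDIN, a gene for a protein of motile cilia, with 73.1 and 75.2. The last lay in an intron of a long non-coding RNA gene, 65.4 kb from DDIT4L, with scores of 70.9 and 73.0. Only the first and the second of these 5 overlapped a peak in both RT112 replicates, and the other 3 overlapped one in neither.

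Ranks 7 to 10 were likewise spread over the genome. They lay 2.79 kb past the keratin gene KRT4 (scores of 65.4 in replicate 1 and 81.9 in replicate 2), 606.7 kb from the aggrecanase gene ADAMTS5 (66.3 and 77.6), in an intron of the Notch coactivator gene MAML2 (73.1 and 62.2) and in an intron of AGBL4 (66.3 and 73.0), which encodes a tubulin deglutamylase. None of these 4 overlapped an RT112 peak.

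The next sequences come from classes of composition: runs of 30 or more purines or pyrimidines, 65% GC or more, and 30% GC or less. Each is the best-ranked member of its class by score, and the GC-rich and AT-rich lines lie at the limits of theirs. In the line from CAMK2B, a calcium/calmodulin-dependent kinase gene, capitals mark a run of 37 purines. In the line beside IGHA1, an immunoglobulin constant region gene, they mark CpG dinucleotides in a window of 65% GC. In the AT-rich line, from a window of 30% GC, they mark the longest run of pyrimidines within the bases shown. All 3 are on the plus strand of GRCh37.
CAMK2B intron, chr7:44336865-44336984: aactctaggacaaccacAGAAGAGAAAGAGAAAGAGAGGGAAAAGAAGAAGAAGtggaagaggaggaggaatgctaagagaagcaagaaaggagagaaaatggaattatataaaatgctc
IGHA1 promoter, chr14:106172919-106173038: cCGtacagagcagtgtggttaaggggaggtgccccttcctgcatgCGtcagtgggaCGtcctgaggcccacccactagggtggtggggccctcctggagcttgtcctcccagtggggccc
PROS2P intron, chr3:90301083-90301202: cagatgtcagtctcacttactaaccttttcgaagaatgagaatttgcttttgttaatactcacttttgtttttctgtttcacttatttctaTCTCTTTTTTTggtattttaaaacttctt

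For comparison, the best-scoring peaks found in only 1 replicate are given in the same way, without capitals. The first, of replicate 1 only, scored 33.5. The second, of replicate 2 only, scored 37.6.
replicate 1 only, chr5:169571006-169571125: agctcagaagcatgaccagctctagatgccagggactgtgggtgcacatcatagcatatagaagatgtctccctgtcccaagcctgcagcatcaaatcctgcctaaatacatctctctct
replicate 2 only, chr15:48483327-48483446: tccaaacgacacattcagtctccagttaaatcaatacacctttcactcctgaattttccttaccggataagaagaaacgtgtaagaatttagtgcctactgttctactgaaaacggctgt

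Score and width belong to the calls that chose the regions and are given as a description. The median score was 5.19 in peaks found in both replicates and 3.35 in peaks of replicate 1 only; in replicate 2 it was 5.16 and 3.85. The scores were stepped: the 8 commonest values held 72% of the replicate 1 peaks and 71.8% of the replicate 2 peaks. From the lowest to the highest of these 8 steps, a score of 2.25 to one of 11.3, the share of replicate 1 peaks found again in replicate 2 went from 57.8 to 92.7%. In replicate 2 the same share went from 55.8% at a score of 2.2 to 88.4% at 11.2. Of the peaks with a score of at least 20, 97.9% of 1304 in replicate 1 and 97.1% of 1368 in replicate 2 were found in both, and all 90 and 110 peaks with a score of at least 40 were. The scores of the same region in the 2 lists had a Spearman rho of 0.64 over 81814 regions, which share cell line, genome and caller, and 91.4% of the regions had scores within a factor of 2 of each other.

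**Figure D1:**
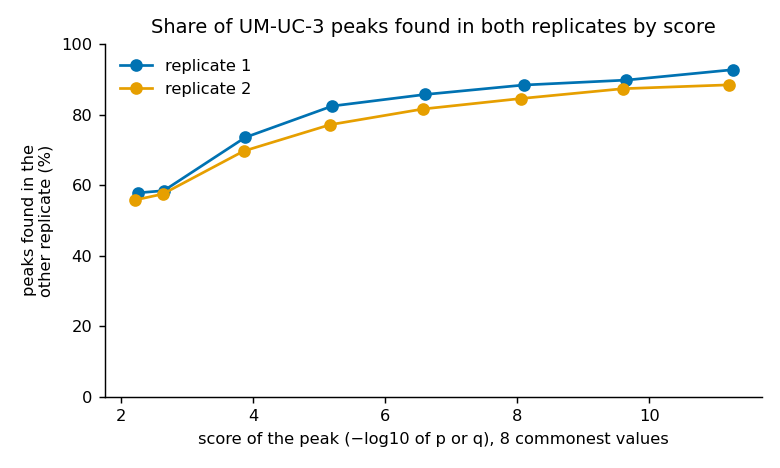
Share of UM-UC-3 peaks found in the other replicate (vertical axis, %) at the 8 commonest scores (horizontal axis, −log10 of p or q), for replicate 1 (blue) and replicate 2 (orange). The points rise from 57.8 to 92.7% in replicate 1 and from 55.8 to 88.4% in replicate 2.

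Width separated the sets little. The median was 274 bp in regions found in both replicates and 276 bp in replicate 1 only, and 273 and 262 bp in replicate 2. Peaks of 700 bp or more made up 1.42% of those found in both, in each list, against 0.459% of the replicate 1 only and 0.434% of the replicate 2 only peaks. Together the 81814 regions covered 25.3 Mb. The overlap that chose them was seldom marginal: 98.8% overlapped at least 90% of the shorter peak of the pair, and 0.265% overlapped less than 50% of it. Just inside the rule, 7 regions overlapped by 1 to 10 bp and had a median score of 2.64. Just outside it, 46 replicate 1 only peaks had a replicate 2 peak within 10 bp, also with a median score of 2.64. Most replicate 1 only peaks had no called replicate 2 peak close by: 9.33% had one within 1 kb, and their median distance to one was 7.86 kb. Whether the same place fell just under the caller's threshold in replicate 2 cannot be seen in peak lists.

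The regions were spread over the whole genome with a marked excess on one chromosome arm. Over 2869 bins of 1 Mb with at least 50% known bases, the median was 28 regions per Mb of known bases (interquartile range 21.8 to 35). The single-replicate peaks had medians of 9 per Mb (replicate 1 only, 7 to 12) and 11 per Mb (replicate 2 only, 8 to 14). At least 50 regions per Mb were found in 105 bins, 3.66% of all bins. Of the 46 bins of the short arm of chromosome 5, 36 were among them, as were 18 of the 25 densest bins of the genome. The densest bin was chr5:11000001-12000000, with 82 regions per Mb, 102 peaks in replicate 1 and 104 in replicate 2; most of CTNND2, the gene of the neuronal adhesion protein delta-catenin, lies there.

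The other bins among the 10 densest held 70 to 74 regions per Mb. They were the bins of chromosome 5 that start at 13, 5, 42, 35, 7, 33 and 38 Mb, one of chromosome 11 at 96 Mb (71.8 per Mb) and one of chromosome 1 at 58 Mb (70 per Mb), which holds part of DAB1. Peaks of RT112 found in both of its replicates ranged from 11.8 to 36 per Mb in the same 10 bins. RT112 had fewer such peaks in all, 36845 against 81814 in UM-UC-3. They held 19.8 per Mb on the short arm of chromosome 5 and 11.7 on its long arm, so dense bins of that arm were not particular to UM-UC-3.

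Split at the centromere, a comparison chosen after the bins were seen, the short arm of chromosome 5 held 56.1 regions per Mb and the long arm 31.0, a ratio of 1.81. The ratio was 1.82 for replicate 1 only peaks and 1.82 for replicate 2 only peaks, so the regions found in both replicates and the single-replicate peaks were raised on that arm alike. In RT112 the ratio was 1.69 for peaks found in both replicates. The next arms in order were the short arm of chromosome 12 with 39.4, of chromosome 1 with 37.1, of chromosome 11 with 35.1 and of chromosome 6 with 34.3 per Mb. At the other end, apart from chromosome Y with 0.224 per Mb, stood the long and the short arm of chromosome 4, with 21.4 and 20.8, and the short arm of chromosome 19, with 18.3. The number of copies of each arm was not measured here, and copy number and density of binding cannot be told apart in peak lists.

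**Figure D2:**
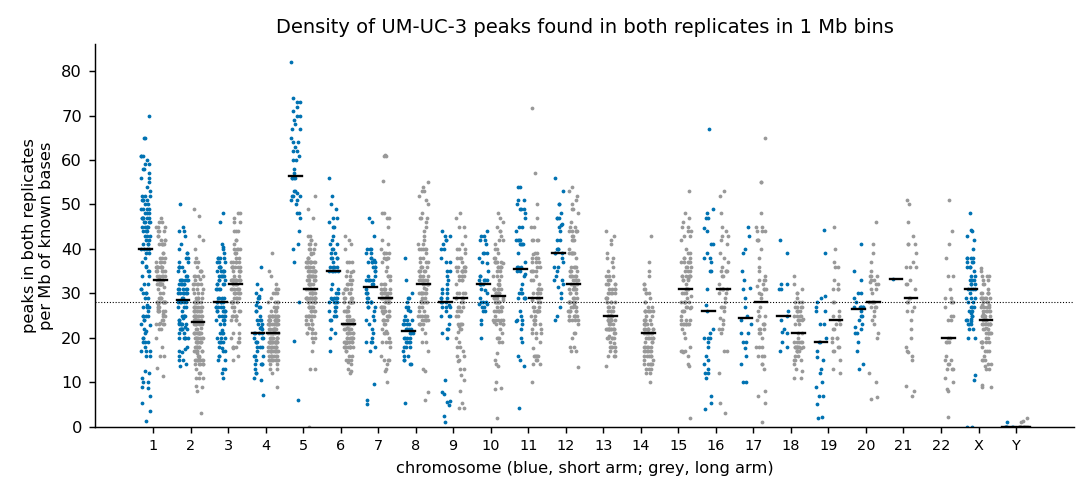
Regions found in both UM-UC-3 replicates per Mb of known bases (vertical axis) in bins of 1 Mb, by chromosome (horizontal axis), with bins of the short arm in blue and of the long arm in grey; black bars are medians of an arm and the dotted line is the median of all bins, 28 per Mb. The short arm of chromosome 5 has the highest median, and 36 of its 46 bins are at 50 per Mb or more.

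Few bins had no region at all. Of the 22 such bins, 19 lay on chromosome Y, which has 23 bins, and 2 were the first bins of the X chromosome, which hold sequence shared with Y. The remaining one was chr5:69000001-70000000, a segment with large duplicated stretches where reads are hard to place; replicate 1 had 2 peaks there and replicate 2 had 0. Regional density in the other sets was correlated with that of the regions. Over the 2869 bins, Spearman's rho between regions found in both replicates and replicate 1 only peaks was 0.48 (Pearson's r 0.55), and with replicate 2 only peaks 0.51 (0.58). It was 0.43 (0.44) with RT112 peaks found in both of that line's replicates, and without chromosome Y the 3 values of rho were 0.47, 0.49 and 0.42. These are descriptions over bins that share genome, mappability and, within UM-UC-3, copy number. Single-replicate counts per bin were small, with medians of 9 and 11 per Mb, which limits rho. The mean rho with single-replicate peaks was 0.38, 0.49 and 0.63 in bins of 500 kb, 1 Mb and 2 Mb. How much of the scatter was due to counting was not tested.

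GC content of a bin did not order the density over all bins, and the density was lower in the classes of low and of high GC content. Over all bins Spearman's rho was -0.04 with GC content and -0.08 with the number of protein-coding transcription start sites (TSS). Bins of 38 to 45% GC held 31.0 to 32.0 regions per Mb, the 331 bins under 36% GC held 25.5, the 497 bins of 36 to 38% held 29.1, the 370 bins of 45 to 50% held 25.1, the 101 bins of 50 to 55% held 14.6 and the 19 bins of 55% or more held 5.95. The share of replicate 1 peaks that were found again in replicate 2 was lowest in those 19 bins, at 64.1%, and 75.9% in bins of 40 to 42% GC. The typical region lay 10.9 kb from the next one, and 4.21% had another within 1 kb.

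At least 1 region lay in the gene body of 9457 of 20163 protein-coding genes, 46.9% of all of them. This share rose with gene length: it was 6.89% for genes under 10 kb, 67.8% for those of 30 to 100 kb and 100% for the 71 genes of 1000 kb or more. The median gene with a region was 70.7 kb long and the median gene without one 11.4 kb. Per kb of gene body the difference was smaller, from 0.0156 regions per kb in genes under 10 kb to 0.0303 in genes of 300 kb up to 1000 kb, against 0.0273 over all genes. Of 1503 gene entries of at least 200 kb, 12 had no region. Of these, 6 lay on chromosome Y or in the sequence that X shares with it, 1 gene being listed on both, and had 0 peaks in either replicate. The others included those of the histone deacetylase HDAC4 (353.5 kb), of RBPJ, the DNA-binding factor of Notch signalling (271.7 kb), and of the chromatin protein GSE1 (506.7 kb). In HDAC4 there were 3 peaks in replicate 1 and 4 in replicate 2, none of them shared.

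The gene with most regions per kb, among those with at least 5, was ALKBH5 at chr17:18086392-18113268, which encodes an RNA demethylase. It held 5 regions in 26.9 kb, 0.186 per kb, and had 5 peaks in replicate 1 and 5 in replicate 2, so no peak there was found in a single replicate. C5orf34, at chr5:43486811-43515250 on the dense short arm of chromosome 5, followed with 5 in 28.4 kb (0.176 per kb). The zinc finger gene ZNF391 had 5 in 29.3 kb (0.171 per kb), with 5 peaks in replicate 1 and 6 in replicate 2. SLC5A4, a sodium/glucose cotransporter family member, had 6 in 36.9 kb (0.163 per kb), with 6 and 7 peaks. Median scores of the regions in these 4 genes were 2.64 to 5.61, against 5.19 over all regions, and the best score was 21.04, in ZNF391.

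The other 16 of the 20 densest genes had 0.116 to 0.157 regions per kb and were of mixed function. Immune genes among them were CD101 (5 regions, 34.8 kb), NCKAP1L (7 regions, 50.5 kb), which encodes a blood-cell subunit of the actin-regulating WAVE complex, GBP2 (6 regions, 44.3 kb), an interferon-induced guanylate-binding protein gene, P2RY6 (5 regions, 40.6 kb), a receptor gene for extracellular nucleotides, and TNFRSF13B (5 regions, 42.3 kb), a B-cell receptor gene of the tumour necrosis factor receptor family. Genes of secreted or membrane transport proteins were CLCA1 (5 regions, 31.9 kb), TF (6 regions, 50.6 kb), which encodes transferrin, and SLC6A2 (6 regions, 51.7 kb), the noradrenaline transporter gene, which held the strongest of them with a score of 32.2. Enzyme genes were TGM4 (5 regions), a transglutaminase of the prostate, ACP6 (5 regions), an acid phosphatase, and PPP1CB (6 regions), a catalytic subunit of protein phosphatase 1. ZNF66, CCDC69, C3orf52, TMEM178A and HHLA1 made up the rest, with 5 to 7 regions each.

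This order of genes rested on small counts: 10 of the 20 had exactly 5 regions, the shortest was 26.9 kb and the longest 53.0 kb, and the gene ranked next, ACER2, had 0.115 per kb. With 3 kb added on both sides of the gene 14 of the 20 stayed, with all peaks of replicate 2 in place of the shared ones 8 stayed, with all peaks of replicate 1 9 stayed, and with at least 10 regions required 0 stayed. That last setting named longer genes, several of them on the short arm of chromosome 5. MEIKIN, a meiotic kinetochore gene on the long arm, led with 14 regions in 138.7 kb (0.101 per kb; 18 peaks in replicate 1 and 16 in replicate 2), followed by the short-arm genes LIFR, a cytokine receptor gene (13 regions, 0.0972 per kb; 16 and 17 peaks), and DNAH5, a dynein heavy chain gene of motile cilia (31 regions, 0.0964 per kb; 40 and 38 peaks). The growth hormone receptor gene GHR held 27 regions (0.0905 per kb; 34 and 31 peaks).

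By number alone the list was one of very long genes. RBFOX1, a splicing regulator gene of 2474 kb, held 113 regions, with 144 peaks in replicate 1 and 154 in replicate 2. DAB1, the reelin adaptor gene, held 103 in 1552 kb, and DLG2, which encodes a postsynaptic scaffold protein, 92 in 2173 kb. They were followed by DMD, the dystrophin gene (78 regions), ASIC2, an acid-sensing ion channel gene (75), CTNND2 (74), CNTNAP2, of the neurexin family (70), PTPRD, a receptor tyrosine phosphatase gene (69), CTNNA3, an alpha-catenin gene (67), and the transcription factor gene RUNX1 (63). Per kb these genes were nearer to the genome-wide value: CTNND2 stood highest with 0.0793, ahead of DAB1 with 0.0664 and ASIC2 with 0.0646, and PTPRD lowest with 0.0300, against 0.0273 over all protein-coding genes.

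Lists of genes were described by their counts beside the 46.9% of all protein-coding genes. All protein-coding genes had 0.0273 regions per kb pooled, a median of 0 per kb and a median length of 27.2 kb. The share with a region rose with gene length, so shares of lists of unlike length cannot be set directly beside 46.9%. In the plasminogen activation list 7 of 12 genes (58.3%) had a region, with 0.0328 per kb pooled over the list and a median of 0.0210. None reached 5 regions, and a few are named here because they belong to the system in which PAI-1 acts: PLG, the plasminogen gene, had 4, ANXA2 3 and SERPINE2 2, and PLAT, which encodes tissue-type plasminogen activator, had 1. PLAU, which encodes urokinase, had 1 peak in replicate 1 and 0 in replicate 2. Of 22 genes often mutated in bladder cancer (median length 88.2 kb) 13 (59.1%) had a region. Their pooled density was 0.0225 per kb and the median 0.0127. KMT2C, a histone methyltransferase gene, held 12 (16 peaks in replicate 1 and 13 in replicate 2), the cohesin gene STAG2 10 (12 and 13) and RB1, the retinoblastoma gene, 5 (8 and 7).

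Gene families were described in the same way, by share and by density. Of all genes of 100 to 300 kb 95.8% had a region, and of those of 30 to 100 kb 67.8%. Median lengths were 140.1 kb (cadherins), 272.9 kb (glutamate receptors), 43.5 kb (potassium channels), 54.1 kb (semaphorins) and 145 kb (collagens). Of 23 cadherin genes 20 had a region (87.0%, 0.0352 per kb pooled over the list). Of the list's 242 regions, 56 were in CDH12, 50 in CDH18, 8 in CDH10, 7 in CDH9 and 6 in CDH6. These genes all lie on the dense short arm of chromosome 5, and the density of the list without them was not computed. On other chromosomes CDH13 held 46 and CDH23 10. Of 20 genes of ionotropic glutamate receptors 17 had a region (85.0%, 0.0278 per kb), with 34 in GRID1, 22 in GRIN2B and 21 in GRIN2A. Of 95 potassium channel genes 50 did (52.6%, 0.0313 per kb), with 30 each in KCNMB2 and KCNIP4, 25 in KCNQ3 and 24 in KCNQ5. Of 20 semaphorin genes 12 did (60%, 0.0269 per kb), led by SEMA5A, on the short arm of chromosome 5, with 32 of the 80 regions. SEMA6D held 21, and SEMA3A and SEMA3E held 8 and 6. Of 44 collagen genes 29 did (65.9%, 0.0262 per kb), led by COL24A1 with 17, COL25A1 and COL22A1 with 15 each and COL14A1 with 13.

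Protocadherin genes (median length 107.6 kb) stood below the pooled value of all genes, with a region in 43 of 66 (65.2%) and 0.0187 per kb. PCDH15 held 55, PCDH9 19, and PCDH7 and PCDH11X 7 each. Zinc finger genes stood close to it, with 267 of 515 (51.8%) and 0.0280 per kb, led by ZNF385D with 25, ZNF536 with 17, ZNF804B with 14 and ZNF385B with 12. Of 97 genes whose symbols start like those of ribosomal proteins (median length 6.94 kb) 18 had a region (18.6%, 0.0141 per kb). The most were in the kinase genes RPS6KA3, with 6, and RPS6KA2, with 5, which share the symbol's start and are no ribosomal protein genes. Of 55 keratin genes (median length 7.10 kb) 9 had a region (16.4%, 0.0206 per kb). Olfactory receptor genes, with a median length of 2.08 kb, had one in 81 of 415 (19.5%) but 0.0468 per kb pooled, the highest pooled value of the 12 lists. OR5V1 and OR51B5 held 8 each, and OR4M2-OT1 and OR3A2 6 each, in gene models of 78.2 to 202.2 kb.

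Regions found in both replicates and single-replicate peaks were then compared by location, a measure the choice of regions did not use. Of the regions, 15.6% were at promoters, meaning within 3 kb of any TSS, 45.5% were intronic and 34.4% were distal intergenic; other exons held 1.71%, downstream DNA 1.55%, 3′ UTRs 1.22% and 5′ UTRs 0.0929%. By midpoints, which can be set beside single points of the grid over the genome, introns held 46.9% of the regions against 45% of the grid, distal intergenic DNA 34.6 against 32.7% and promoters 14.9 against 18.4%. In replicate 1, 15.6% of the peaks found in both and 16.3% of the single-replicate peaks were at promoters, and in replicate 2 15.6 and 16.4%. The difference, found in both minus found in one, was -0.739 ± 0.0642 percentage points for promoters (SD, n = 2 replicates). It was 0.293 ± 0.0469 points for introns and 0.395 ± 0.184 points for distal intergenic DNA. In RT112 the same differences were 0.157 ± 0.0596, -0.0410 ± 0.00814 and -0.301 ± 0.238 points (SD, n = 2), opposite in sign in all 3. The RT112 single-replicate peaks were unevenly split between its lists, with 59578 in replicate 1 and 23307 in replicate 2.

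These differences were below 1 percentage point, and most did not hold among stronger peaks. Among peaks with a score of at least 5 in both lists, the promoter difference was 0.0430 points and the intron difference -0.373 points, both reversed, and the distal intergenic difference was 0.155 points. With protein-coding genes only the intron difference was -0.00185 points. The share of replicate 1 peaks that were found in both replicates lay between 73.8% (5′ UTR) and 76.4% (other exons) over the 7 locations. By distance, 2.68% of the regions lay within 1 kb of a protein-coding TSS, against 2.86% of the replicate 1 only and 2.90% of the replicate 2 only peaks. The median distance to such a TSS was 46.2 kb for regions found in both, and 44.9 and 43.5 kb for the single-replicate peaks. With 2 libraries an exact paired permutation test cannot give a two-sided p below 0.5, and both differences of a measure use the same shared regions, so no test was made.

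**Figure D3:**
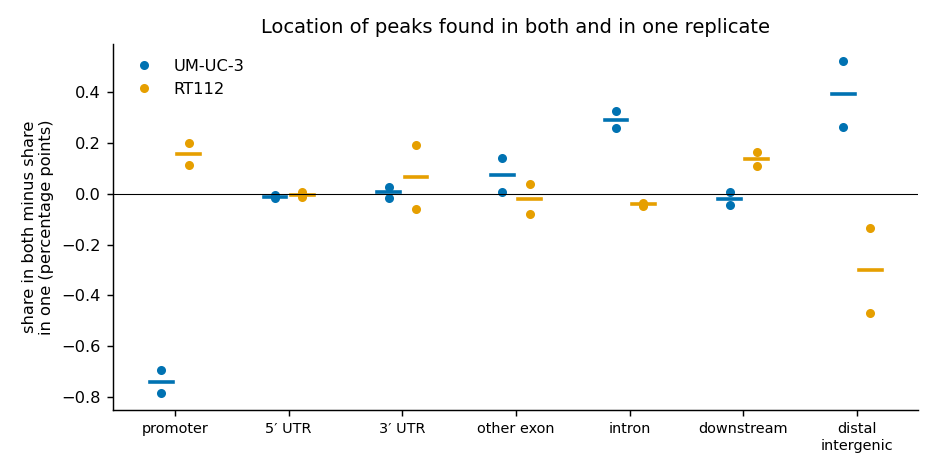
Share of peaks found in both replicates minus share of single-replicate peaks (percentage points) in each location, for the 2 replicates of UM-UC-3 and the 2 of RT112. Promoters lie at -0.694 and -0.784 points in UM-UC-3 and at 0.199 and 0.114 points in RT112.

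Base composition separated the sets more than location did. In 200 bp around the midpoint, regions found in both replicates had a mean GC content of 40.8%, against 39.9% in replicate 1 only and 40.02% in replicate 2 only peaks and 40.9% in windows on a regular grid over the genome. The difference was 0.851 ± 0.0988 percentage points (SD, n = 2), and in RT112 0.906 ± 0.258 points, in the same direction in 4 of 4 libraries. It came with fewer AT-rich windows. Windows of 30% GC or less made up 7.96% of the regions, 11.7 and 11.4% of the single-replicate peaks and 12.04% of the grid, a difference of -3.61 ± 0.213 points in UM-UC-3 and -1.85 ± 0.952 in RT112. When single-replicate peaks were weighted to the score deciles of the regions, it was -2.33 points.

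Both extremes of GC content were thin. The SD of GC content over windows was 7.73 points in the regions, 8.27 and 8.25 in single-replicate peaks and 9.44 over the grid. Windows of 60% GC or more made up 0.315% of the regions against 3.15% of the grid, and 21 regions reached 65%, none 70%. Of all replicate 1 peaks, 77.9% of those with 45 to 50% GC were found in both replicates, 58.8% of those with 20 to 25% and 50% of those with 65 to 70%, where 21 were. Under 20% GC the share was 80%, with 12 regions. CpG dinucleotides were at 0.190 of the number expected from base composition in the regions, 0.2011 and 0.2025 in the single-replicate peaks and 0.231 over the grid.

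**Figure D4:**
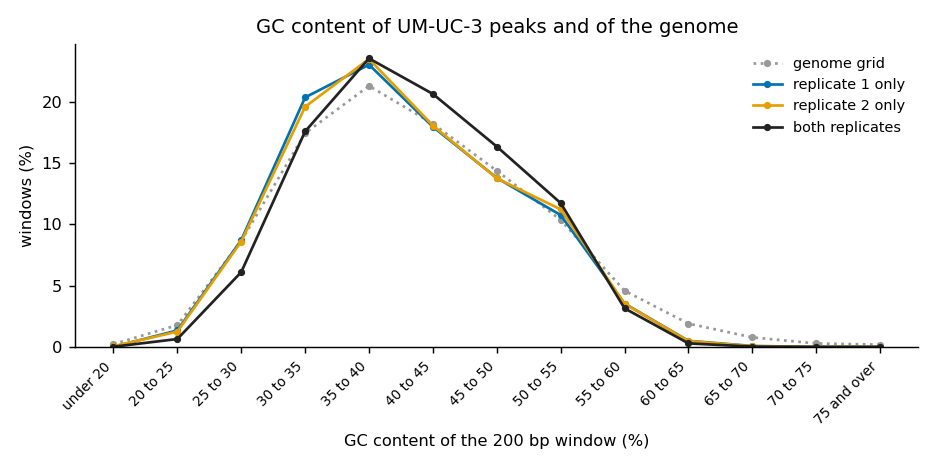
Share of windows of 200 bp (%, vertical axis) in classes of GC content (%, horizontal axis) for regions found in both UM-UC-3 replicates, single-replicate peaks and a regular grid over the genome. Regions found in both replicates exceed the grid between 30 and 55% GC and lie below it at both ends, at 0.361 times the grid for 20 to 25% and 0.152 times for 60 to 65%.

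Simple repeats did not all behave alike. A run of 12 or more A on either strand was found in 2.54% of the regions, in 3.49 and 3.42% of the single-replicate peaks and in 4.46% of the grid. The difference of -0.914 ± 0.0438 points (SD, n = 2) was negative in 4 of 4 libraries and was -0.180 points among peaks with a score of at least 5. TA repeated 6 times was found in 0.0379% of the regions, 0.0837 and 0.121% of the single-replicate peaks and 0.462% of the grid. A tandem repeat of 30 bp or more was found in 284 regions (0.347%), in 0.400 and 0.465% of the single-replicate peaks and in 0.747% of the grid; its difference of -0.0864 ± 0.0468 points became 0.0126 at a score of at least 5. Purine or pyrimidine runs of 30 bases or more, like that shown from CAMK2B, were found in 772 regions (0.944%) against 0.946 and 1.08% in the single-replicate peaks and 1.21% over the grid. GGAA repeated 3 times was found in 146 regions (0.178%), in 0.124 and 0.161% of the single-replicate peaks and in 0.175% of the grid. AG repeated 6 times was found in 0.413% of the regions, 0.335 and 0.431% of the single-replicate peaks and 0.393% of the grid.

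Short motifs of transcription factors were searched on both strands of the same windows, and none of those named here contains another. CCAAT, marked in 2 of the sequences shown, was found in 29.96% of the regions, 29.1 and 29.1% of the single-replicate peaks and 27.5% of the grid. TGACTCA, the AP-1 motif, was in 3.21% of the regions, 2.72 and 3.09% of the single-replicate peaks and 3.02% of the grid. GGAATG, the TEAD motif, was in 11.3, 10.3, 10.6 and 10.6%, and CACGTG, the E-box, in 1.84, 1.80, 1.66 and 1.81% of the same sets. GGGCGG, the GC box bound by SP1, was in 1.65% of the regions, 1.75 and 1.70% of the single-replicate peaks and 2.87% of the grid. No motif of these 5 was more than 1.18 times as frequent in the regions as in the single-replicate peaks of a replicate.

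All 6-mers were counted as well, each together with its reverse complement. Of 1830 found in at least 1% of windows, 44 (2.4%) were at least 1.1 times as frequent in regions found in both replicates as in single-replicate peaks of both replicates, and 73 (3.99%) were at least 1.1 times less frequent. Of those 73, 41 contained a CpG and 26 no G or C at all. The 6-mer that stood farthest apart fitted neither group. CTGAAG was found in 4.43% of the regions, in 6.03% of the replicate 1 only and 6.52% of the replicate 2 only peaks, and in 13.5% of the grid. Its ratio of regions to grid was 0.329, whereas among the 480 6-mers with 3 G or C and no CpG the next lowest ratio was 0.803 and the median 1.05. In RT112 replicate 1 the sets stood the other way, with 4.68% in peaks found in both replicates and 3.32% in single-replicate peaks. In RT112 replicate 2 the shares were 4.19 and 6.02%. The mean UM-UC-3 ratio of regions to single-replicate peaks was 0.714 in these windows and 0.935 in windows of 400 bp.

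The flanks of the peaks were read after this value had been seen, and CTGAAG was found at fixed distances from their ends. Each end was read from outside towards the peak. Deeper inside the letters were rare: 40 bases inside, CTGAAG started at 0.00122% of the ends of the regions, against 0.0397% at 60 bases outside. At 3.55% of the ends of the regions CTGAAG started 25 to 22 bases outside the peak, against 0.148% in windows shifted outwards by 100 bp. At 3.67% of the ends its reverse complement CTTCAG started 12 to 15 bases inside the peak, against 0.158% in the shifted windows. At a single position, CTTCAG with its first base 13 bases inside was 40.8 times as frequent as farther outside, and CTGAAG 23 bases outside 39.4 times, the highest of all 6-mers at fixed positions. In this way 11322 regions (13.8%) had the letters placed at 1 end or more, against 0.612% in shifted windows, and 459 had them at both.

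**Figure D5:**
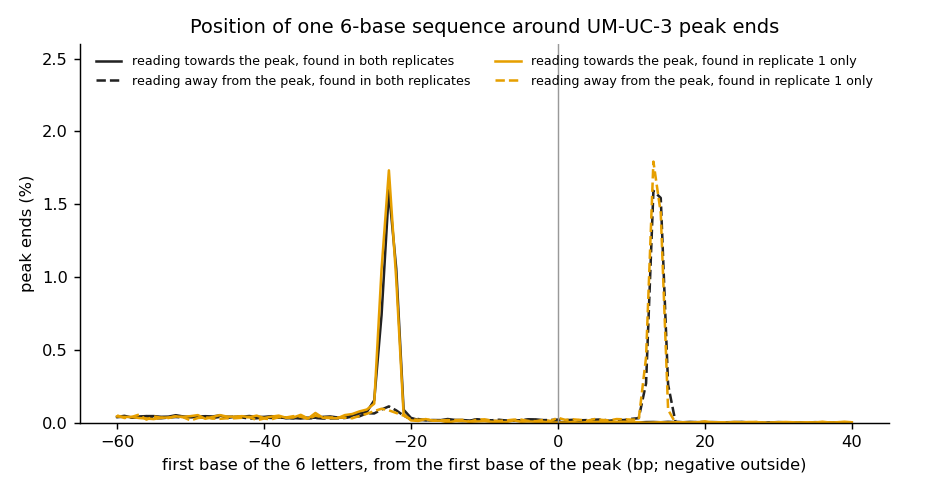
Position of CTGAAG around the ends of UM-UC-3 replicate 1 peaks (horizontal axis, first base of the 6 letters in bp from the first base of the peak, negative outside) and share of peak ends with the letters there (vertical axis, %), reading towards the peak (solid) and away from it (dashed), for peaks found in both replicates (black) and in replicate 1 only (orange). Both sets have narrow maxima 23 bases outside, at 1.60 and 1.73%, and 13 bases inside, at 1.59 and 1.79%.

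The ends of 2 regions with the letters at both ends, the best-ranked ones, show the arrangement. Each line gives 70 bases of GRCh37 on the plus strand, 5′ to 3′, across 1 end of a peak, and capitals mark the 6 letters in either orientation. The outermost base of the peak is at position 41 of a left end and at position 30 of a right end, counted from 1. The first region, chr21:30739104-30739529, lay in an intron of BACH1, a transcription repressor gene, and scored 48.4 in replicate 1 and 43.96 in replicate 2. The second, chr12:119697599-119697846, lay in a promoter and scored 37.7 and 39.7.
chr21:30739064-30739133, left end: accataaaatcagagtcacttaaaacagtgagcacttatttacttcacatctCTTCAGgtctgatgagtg
chr21:30739500-30739569, right end: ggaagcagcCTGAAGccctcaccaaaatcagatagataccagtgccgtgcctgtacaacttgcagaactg
chr12:119697559-119697628, left end: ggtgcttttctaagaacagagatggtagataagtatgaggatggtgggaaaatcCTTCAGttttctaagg
chr12:119697817-119697886, right end: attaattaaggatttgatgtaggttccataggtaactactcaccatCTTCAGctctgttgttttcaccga

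The placed letters occurred in all sets. They were found at 1 end or more of 14.7% of the replicate 1 only and 14.8% of the replicate 2 only peaks, and of 14.0 to 16.5% of the peaks of the 4 RT112 sets. Peaks with the letters were found in both replicates slightly less often than peaks without, 73.7% against 75.1% in replicate 1 and 70.3% against 71.98% in replicate 2. This order was not kept in all classes of score. Below a score of 5 the shares were 61.9 and 65.5% in replicate 1 and 59.1 and 63.1% in replicate 2, whereas from 5 to 10 they were 85.6 and 84.98% in replicate 1 and 80.9 and 80.7% in replicate 2. From 10 to 20 they were 92.9 and 94.3% and 91.8 and 90.9%, and from 20 upwards 97.9 and 97.9% and 97.3 and 97.1%. Runs of G or T also gathered just outside the ends. A run of 5 G lay 22 to 9 bases outside 2.83% of the ends of the regions, against 0.525% in shifted windows, and a run of 6 T outside 5.21% against 1.08%.

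As background, CTGAAG is the recognition sequence of the restriction enzymes AcuI and Eco57I, which cut DNA at a fixed distance outside it. No such digestion is named for the ChIP libraries in the sources used here, and the cause of the placement was not tested.

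Finally, the regions were compared with the RT112 lists, which had no part in choosing them. A peak of both RT112 replicates was overlapped by 2044 regions (2.50%), and a peak of either by 6.29%. Of the single-replicate peaks 2.09% (replicate 1 only) and 1.80% (replicate 2 only) overlapped a peak of both RT112 replicates. For overlap with RT112 replicate 1 the shares were 5.21% of the regions against 4.24 and 3.98% of the single-replicate peaks, and for RT112 replicate 2 3.58% against 2.92 and 2.74%. The difference averaged over both RT112 lists was 0.931 ± 0.163 points (SD, n = 2), and 0.506 points when each peak had to overlap 50% of the other. Within the regions the share that overlapped a peak of both RT112 replicates rose with the score. It was 1.51% below a score of 5 and 9.32% (119 of 1277 regions) from 20 upwards. Regions of higher score were also wider. Among those without placed letters the median width was 266 bp below a score of 5 and 338.5 bp from 20 upwards. How much of the rise went with width was not tested.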

How the data were processed

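According to the study's methods and the submitters' processing notes, which also name FastQC and Trimmomatic, ChIP reads of UM-UC-3 and RT112 were mapped by the authors to hg19 with Bowtie 1.1.1, PCR duplicates were removed with Picard and enriched regions were called with MACS2 2.1.0.20140616. The authors deposited 1 peak list for each of the 4 ChIP libraries. The deposited score was taken to be −log10 of MACS2's p-value or q-value; which of these it is, whether the input was the control and which threshold applied to the lists are not given in the sources used here. A legend in the study names a false discovery rate limit for bound probe sets but does not tie it to these lists. The lowest score was 2.00 to 2.01 in all lists.

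From these lists, lines with identical intervals were counted once (131 removed in UM-UC-3 replicate 1 and 161 in replicate 2). Peaks overlapped when they shared 1 bp. Locations came from GENCODE 44 mapped to GRCh37, with this priority: promoter (up to 3 kb either side of any TSS), UTR (5′ before 3′), remaining exons, introns, the 3 kb downstream of a gene, and distal intergenic DNA. Composition was read in 200 bp around the midpoint, beside 1429301 windows placed every 2 kb. If the list starts are already counted from 1, positions move by 1 base. Differences are given per replicate with mean and SD; p-values were not computed. Genes named were the 20 with most regions per kb (at least 5 regions), the 10 with most regions and up to 4 genes of each list with at least 5; exceptions are stated, and some items that the rules named are not reported here. The members and lists were chosen with earlier results of these data known. The procedures were tested on simulated data. Python 3.11.15 was used with numpy 2.4.6, pandas 2.3.3, scipy 1.17.1 and matplotlib 3.10.9. The share of interspersed repeats was not computed.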

Additional observations from a re-analysis of the deposited data

Results flagged for a closer look

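For 9 measures the difference between peaks found in both replicates and single-replicate peaks had one sign in both UM-UC-3 replicates and the other in both RT112 replicates. The difference between the cell lines was not tested. The measures overlap, since the location and TSS measures describe the same peaks. The RT112 single-replicate peaks were also unevenly split, with 59578 in replicate 1 and 23307 in replicate 2. By location, the differences in percentage points were -0.739 in UM-UC-3 against 0.157 in RT112 for promoters, 0.293 against -0.0410 for introns and 0.395 against -0.301 for distal intergenic DNA. They were -0.207 against 0.410 within 1 kb of any TSS and -0.207 against 0.232 within 1 kb of a protein-coding TSS. By composition they were -0.232 against 0.0446 for windows of 60% GC or more, -0.0673 against 0.198 for purine or pyrimidine runs of 30 bases or more and -0.0864 against 0.0709 for tandem repeats of 30 bp or more. The number of CpG per window differed by -0.0432 in UM-UC-3 and by 0.0175 in RT112. For purine or pyrimidine runs the UM-UC-3 differences were -0.00278 points in replicate 1 and -0.132 points in replicate 2. At a score of at least 5 in both lists the UM-UC-3 differences for promoters, introns and tandem repeats reversed.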

How the results depend on the processing

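The comparisons came from 2 libraries of 1 cell line and the lists give no depth, so no counting error stands beside any value. Of 104 alternative values 40 moved by less than 1 SD between replicates or, for counts, by less than 1.5 times. Another 60 moved further and 4 reversed, and the cause of these changes was not tested. The SD comes from 2 values that largely share the same regions, so it was very small for some results. The chromosome 5 arm ratio counted as moved from 1.807 to 1.810 (SD 0.000776), and mean GC from 40.80 to 40.58% (SD 0.00254). The number that moved is therefore no measure of instability. No paired analysis was possible because the results come from no test, and nothing in the labels pairs libraries by their replicate number.

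The share of replicate 1 peaks found in both was 72.5% with a reciprocal overlap of 50% and 64.6% (31644 regions) with a score of at least 5 in both lists. The promoter difference was -0.205 points for promoters of 1 kb, -0.569 with reciprocal overlap, -0.484 with single-replicate peaks weighted by score, -0.881 without single-replicate peaks within 1 kb of the other list and, reversed, 0.0430 at a score of at least 5. The intron difference was 0.0194, 0.357, 0.00238, 0.347 and -0.373 points (reversed) under the same settings, 0.204 by midpoints and -0.00185 (reversed) with protein-coding genes only. The distal intergenic difference was 0.973 with protein-coding genes only and 0.155 at a score of at least 5. Mean GC differed by 0.664 points with weighting. Windows of 30% GC or less differed by -3.34 (reciprocal overlap), -2.33 (weighting), -2.38 (score of at least 5) and -2.90 points (400 bp windows). Runs of 12 A differed by -0.731 (weighting), -0.180 (score), -0.328 (100 bp) and -0.840 points (400 bp), and tandem repeats by 0.0126 (score, reversed) and -0.0341 points (400 bp).

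In bins of 500 kb and 2 Mb the interquartile range was 16 and 12 regions per Mb, the highest bin 98 and 69, and rho with single-replicate peaks 0.38 and 0.63. Without the short arm of chromosome 5, a setting chosen after seeing the data like those on chromosome arms, chromosome Y and peak ends, these were 14, 71.8 and 0.47. Of the 20 densest genes 0 stayed with at least 10 regions required; with 3 kb on both sides 51.7% of genes had a region. The RT112 difference was 0.506 points with reciprocal overlap. CTGAAG in regions over single-replicate peaks was 0.714, and 0.625 and 0.935 in windows of 100 and 400 bp. Its placement at an end was found in 14.4% of regions with windows wider by 2 bases on both sides and in 14.8% at a score of at least 5.

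With all peaks of 1 replicate in place of the shared regions, promoters held 15.8 to 15.8%, mean GC was 40.6 to 40.6% and windows of 30% GC or less made up 8.90 to 8.91%. The median bin then held 37 to 39 per Mb, the interquartile range was 16.5 to 17, the highest bin 102 to 105, the ratio of the arms of chromosome 5 1.81 to 1.81, the 20 densest genes kept 8 to 9, genes with a region 52.7 to 53.3% and placed letters 14.0 to 14.1%.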
